A study of Mus musculus with 454 samples.

Results

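The genes described here are those of the proteins of the cytosolic ribosome in the mouse brain. They were chosen by symbol: Rpl or Rps followed by a digit, together with Rplp0, Rplp1, Rplp2 and Rpsa, leaving out pseudogenes marked "-ps" and the S6 kinase genes, and asking for a mean of at least 1 CPM (a gene's counts scaled to a common library total) over all libraries. Among the 43346 genes of the count table, 92 matched by symbol and 83 of these reached the level. The 83 comprised 31 genes of the small subunit (Rps), 45 of the large subunit (Rpl) and 7 relatives whose symbols also match the rule (Rpl7l1, Rpl22l1, Rpl36al, Rps27l, Rps4l, Rpl37rt and Rps19bp1). Of these, Rps19bp1, whose product binds the S19 protein, is counted as a relative by its symbol only. Rps4l and Rpl37rt are annotated as transcribed processed pseudogenes. The 9 genes left below the level were Rpl10l, Rps12l1, Rpl6l, Rps3a2, Rpl39l, Rps3a3, Rpl24, Rps27rt and Rpl3l. Among them Rpl24, a core protein of the large subunit, stood at 0.347 CPM. In the annotation 81.7% of its 50-base windows also occur in other genes, and a read from such a window cannot be assigned to it alone. Members with larger shares had very different levels, such as 1.41 CPM for Rpl37rt (91.0%) and 72.0 CPM for Rps27 (98.6%). The part of shared sequence in the level of Rpl24 was not tested.

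Poly(A) RNA was sequenced from 4 brain regions of mice, labelled AMY (amygdala; the series title names its medial part), Nac (nucleus accumbens), PFC (prefrontal cortex) and VTA (ventral tegmental area). Mice of both sexes were group-housed (G) or socially isolated (SI) and received saline (0 mg/kg) or cocaine (7.5 mg/kg), acutely or chronically. There were 115 AMY, 112 Nac, 112 PFC and 115 VTA libraries, which fall into 64 groups of 5 to 8. Every group is thus one combination of region, sex, housing, dose and schedule, and the labels give no strain, genotype or age, nor whether libraries of a group came from separate animals, so p-values measure the spread between these libraries.

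A ribosome joins a small subunit, which reads the mRNA, to a large subunit, which forms the peptide bond. Most ribosomal proteins are present in equal number in the finished particle. The mRNAs of these proteins begin with a run of pyrimidines (the TOP motif), through which mTOR and the RNA-binding protein Larp1 raise or lower their translation as a group. Their genes have short transcripts, are read in every cell, and in neurons part of their mRNA is carried into dendrites and axons, where local translation takes place.

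Promoter sequence was at hand for 62 of the 83 genes (RefSeq, GRCm38.p6). The motif CGGAAG, the core recognised by ETS factors such as GABPA, was present on either strand in the windows of 42 of these (67.7%) and of 18.8% of all 27025 genes with such a window. The pyrimidine run CTTTCC on the gene's own strand was present in 25 (40.3%, against 16% of all genes). The YY1 core AAGATGGC, on either strand, was found in 6 (9.7%, against 3.2%), and TATAAA on the gene's strand in 6 (9.7%, against 9.8%). These counts are over windows of 250 bases before to 50 after the start, and a match describes letters only. The 100 bases around the start (80 before, 20 after) are printed for the members on which the results below turn, written 5′ to 3′ on the gene's strand, with matches to the ETS core (read CTTCCG where it lies on the other strand), the pyrimidine run and TATAAA in capitals. Rpl37a and Rpl41 had the largest differences among the members called in 1 housing comparison, Rpl31 the largest rise from AMY to Nac, Rps18 and Rpl13a the lowest p in the comparison of the sexes in PFC, and Rpl22 and its relative Rpl22l1 opposite differences between PFC and AMY. For Rpl22, which has more than 1 RefSeq start, the downstream start is shown.
Rpl37a (chr1:72711180-72711279, plus strand): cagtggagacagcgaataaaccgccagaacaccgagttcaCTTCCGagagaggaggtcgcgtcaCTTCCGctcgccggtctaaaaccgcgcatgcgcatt
Rpl41 (chr10:128549149-128549248, minus strand): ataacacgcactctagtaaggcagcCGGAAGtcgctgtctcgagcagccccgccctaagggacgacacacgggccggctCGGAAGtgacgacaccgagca
Rpl31 (chr1:39367771-39367870, plus strand): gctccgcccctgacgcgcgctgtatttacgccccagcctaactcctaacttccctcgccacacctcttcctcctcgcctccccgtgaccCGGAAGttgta
Rps18 (chr17:33955646-33955745, minus strand): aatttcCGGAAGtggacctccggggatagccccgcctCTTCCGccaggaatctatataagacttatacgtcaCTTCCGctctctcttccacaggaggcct
Rpl13a (chr7:45128726-45128825, minus strand): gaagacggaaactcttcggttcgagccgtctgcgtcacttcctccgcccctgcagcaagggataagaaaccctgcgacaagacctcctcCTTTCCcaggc
Rpl22 (chr4:152325646-152325745, plus strand): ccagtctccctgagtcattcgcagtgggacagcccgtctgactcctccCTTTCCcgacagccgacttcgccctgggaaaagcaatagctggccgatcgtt
Rpl22l1 (chr3:28805428-28805527, plus strand): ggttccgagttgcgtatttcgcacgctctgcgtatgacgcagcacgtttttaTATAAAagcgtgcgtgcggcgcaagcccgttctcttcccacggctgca
The windows of Rpl37a and Rpl41 each hold the ETS core at 2 places, and that of Rps18 at 3. The window of Rpl22l1 holds TATAAA, that of Rpl22 holds CTTTCC, and neither holds the ETS core. The share of 50-base windows of the transcript found in other genes too was 38.5% for Rpl37a, 53.1% for Rpl41, 75.1% for Rpl31, 86.7% for Rps18, 57.4% for Rpl13a, 24.5% for Rpl22 and 57.3% for Rpl22l1, which limits how far a count can be tied to the single gene.

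Total counts per library were 11205511 to 52335542, with 19715 to 23753 genes counted, and the 37 mitochondrially encoded genes were listed at 0 counts throughout. The defining markers matched the labelled regions: the striatal list had a mean level of 8.60 on the log2(CPM + 1) scale in Nac and 3.86 to 5.04 elsewhere, the dopamine neuron list 8.11 in VTA and 1.66 to 2.31 elsewhere, the cortical list 7.50 in PFC and 3.43 to 5.29 elsewhere, and the medial amygdala list 4.10 in AMY and 1.84 to 2.08 elsewhere. A rule on principal components and on markers of tissues outside the region set apart 12 AMY, 10 Nac, 13 PFC and 20 VTA libraries. Results within regions that rest on them are given with and without them. Between regions, the numbers of members called against AMY are given both ways. The other pairs of regions, the ranking of regions and most values of single members are given with all libraries. The numbers in the titles fall into series that begin at 500, 1000, 1100 and 1200. Libraries of different regions with the same title number always had the same sex, housing, dose and schedule. Whether they came from the same mouse is not stated, and the main tests between regions treated them as independent.

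Per kilobase of transcript, the highest mean levels over all libraries belonged to Rplp1 (816 CPM per kb), an acidic protein of the stalk that receives elongation factors, Rps29 (523), Rps15 (478), Rpl41 (378), the smallest protein of the ribosome, and Rps21 (375). At the other end lay Rpl37rt (4.78 CPM per kb), Rpl23a (9.08), Rps27l (15.1), Rps19bp1 (15.4), whose product binds the S19 protein, and Rps4l (23.6). Part of this list cannot be read at face value: 82.6% of the 50-base windows of Rpl23a, 91.0% of those of Rpl37rt and 60% of those of Rplp1 recur in other genes, and how such reads were counted is not given in the sources used here. The shares were 0% for Rps19bp1, 3.0% for Rps3 and 18% for Rps4l.

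The members' level was summarised in each library as the mean of log2(CPM + 1) over the 83 genes. Its median was 6.88 in Nac, 6.77 in AMY, 6.73 in VTA and 6.59 in PFC, and the mean ± SD was 6.89 ± 0.33 (n = 112), 6.78 ± 0.14 (n = 115), 6.73 ± 0.14 (n = 115) and 6.63 ± 0.19 (n = 112). Single libraries of any 2 neighbouring regions overlapped. Members took a median of 1.28% of all counts in Nac, 1.15% in AMY, 1.12% in VTA and 1.01% in PFC. Over single libraries this share ran from 0.248% to 5.15%, and both ends were Nac libraries.

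**Figure D1:**
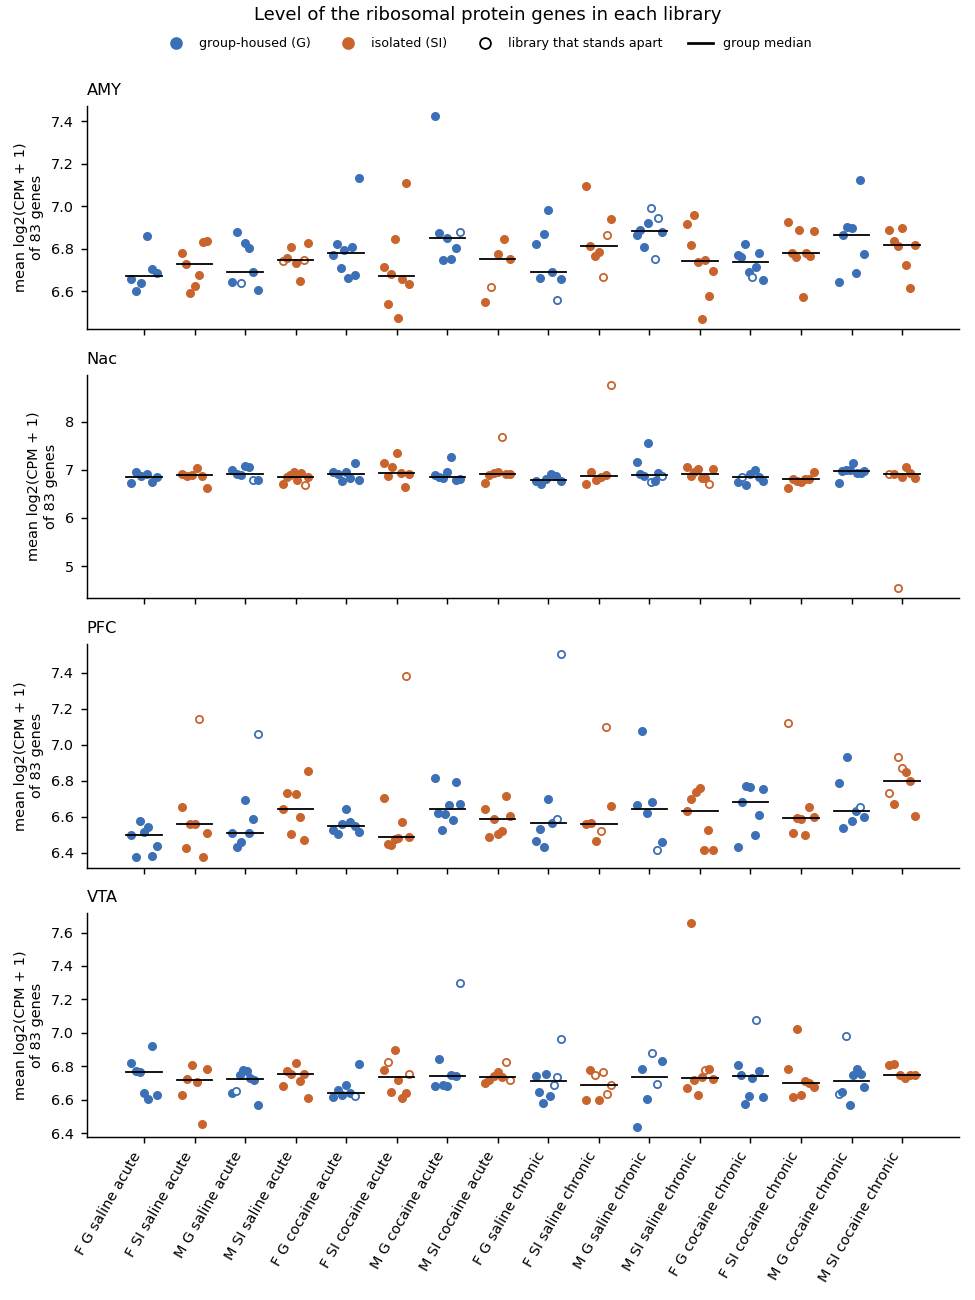
Mean log2(CPM + 1) of the 83 ribosomal protein genes in each library (points), by group (16 per region, 1 panel per region); open points are libraries that stand apart and lines are group medians. The Nac panel holds the highest library (8.76) and the lowest (4.54), both drawn as open points.

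Relative to all counts of a library, the members' level was highest in the nucleus accumbens among the 4 regions. Of the 83 members, 72 were higher in Nac than in AMY and 3 were lower, with a median log2 difference of 0.23 against 0.04 over all genes (edgeR quasi-likelihood test, Benjamini-Hochberg adjusted p under 0.05; 84.4% of the 18627 genes tested passed). With that many genes called, the share of members called (75 of 83) is no result in itself, and the direction and size carry the description. Without the libraries that stand apart 65 members were higher and 7 lower, with a median of 0.14 (84.6% of genes called). Markers of other cells differed between Nac and AMY in both directions. Higher in Nac were 6 of 6 for oligodendrocytes (median 0.87), 6 of 6 for microglia (0.35), 4 of 4 for endothelial cells (0.24) and 4 of 4 for blood (0.37). Of the astrocyte markers 5 of 6 were lower and 1 higher (-0.26). Lower too were 2 of 2 for precursors (-0.33), 2 of 3 for mural cells (1 higher, -0.51) and 6 of 8 for choroid plexus (2 higher, -1.44). Ependymal markers were mixed (2 of 4 higher, 1 lower, 0.22). Oligodendrocyte markers were also higher in VTA than in Nac (6 of 6, median 1.40), where the members had a median of -0.20. The part of these markers in the members' differences was not tested. Against PFC the difference was larger: 76 members were lower in PFC than in Nac and 5 higher (86.0% of genes called), with a median of -0.25 against -0.06 over all genes. VTA was lower than Nac for 65 members and higher for 9 (90.4% of genes called, median -0.20 against -0.02).

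The other pairs of regions differed in mixed directions. PFC was higher than AMY for 13 members and lower for 28 (81.5% of genes called, median -0.03), and without the libraries that stand apart for 8 and 54 (81.8% of genes called, median -0.10). VTA was higher than AMY for 25 and lower for 23 (87.3% of genes called, median 0.01), and without those libraries for 21 and 39 (87.2% of genes called, median -0.05). VTA was higher than PFC for 38 and lower for 20 (89.3% of genes called, median 0.04). Ranked by mean log2 level, Nac was the highest region for 61 of the 83 genes, VTA for 12, AMY for 9 and PFC for 1. PFC was the lowest for 59, VTA for 17, Nac for 4 and AMY for 3.

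Among genes of the large subunit, Rpl31 had the largest rise from AMY to Nac. Its level was 146 ± 16.5 CPM in AMY (SD, n = 115; lowest 110, median 144, highest 196), 210 ± 38.6 in Nac (n = 112; 27.0, 205, 435), 145 ± 23.4 in PFC (n = 112; 114, 139, 254) and 136 ± 18.7 in VTA (n = 115; 91.2, 134, 258). Thus the Nac median lay above the highest AMY library, and the other regions overlapped almost wholly. The difference between Nac and AMY was 0.58 on the log2 scale (SE 0.03, adjusted p = 1.09e-59). Next in size were Rpl30, Rplp1 and Rplp2, with Rps29 of the small subunit, each higher in Nac than in AMY by 0.47. Rplp1 and Rplp2 form the stalk of the large subunit with Rplp0, which was higher by 0.33. Rplp1 stood at 539 ± 255 CPM in Nac (n = 112; 61.0, 510.7, 3048) and, without the libraries that stand apart, at 520.6 ± 66.7. It stood at 405 ± 52.6 in AMY (n = 115; 268.6, 402, 624), 371 ± 72.8 in PFC (n = 112; 274, 353, 805) and 316 ± 50.9 in VTA (n = 115; 249, 310, 673), and VTA was lower than Nac by -0.78.

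The small-subunit genes described next were lower in PFC or VTA than in Nac. Rps27 was lower in PFC than in Nac by -0.61 and Rps12 by -0.58, and Rps2, close to the mRNA entry channel, was lower in VTA than in Nac by -0.64 and than in PFC by -0.46. Rps6, the substrate of the S6 kinases and a common marker of neuronal activity through its phosphorylation, went another way. Its level was 133 ± 15.6 CPM in VTA (n = 115), 112 in Nac, 104 in AMY and 89.7 in PFC, and VTA was higher than AMY by 0.40 (SE 0.03, adjusted p = 2.16e-37) and than PFC by 0.50. Reads shared with other genes touch this result, since 84.6% of the windows of Rps6 are not unique. The steadiest members over regions were Rpl15, with a range of 0.10 between the highest and lowest regional mean log2 level, Rpl32 and Rpl7a (0.12 each), Rpl38 (0.13) and Rpl4 (0.15).

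**Figure D2:**
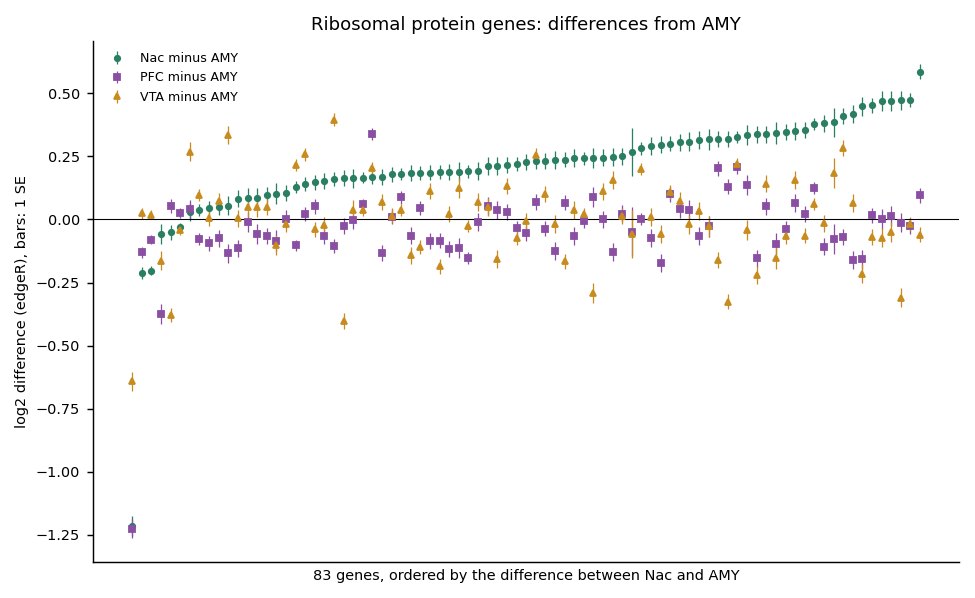
Fitted log2 difference from AMY (± 1 SE) of each of the 83 members in Nac, PFC and VTA, ordered by the Nac difference. Most Nac points lie above 0, up to 0.58 for Rpl31, while PFC and VTA points scatter around 0; Rps4l is at the low end in all 3 regions (-1.22 in Nac, -1.23 in PFC and -0.64 in VTA).

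The genes counted as relatives had patterns of their own, and some went opposite to the core gene they resemble. Rps4l (chr6:148354656-148355598 on the plus strand of GRCm38), a copy of the X-linked Rps4x that the annotation lists as a transcribed processed pseudogene, had the widest range of all members (1.27 between regional mean log2 levels). Its level was 30.4 ± 5.46 CPM in AMY (n = 115; 16.3, 30.1, 46.2), 18.9 ± 3.31 in VTA (n = 115; 10.01, 18.7, 38.2), 12.6 ± 3.33 in Nac (n = 112; 5.36, 12.3, 30.3) and 12.1 ± 2.59 in PFC (n = 112; 5.78, 11.7, 20.9). The AMY median exceeded every PFC library and lay near the highest Nac library. Nac was lower than AMY by -1.22 (SE 0.04, adjusted p = 8.14e-109), whereas Rps4x was higher in Nac by 0.30. Rpl22 and its paralogue Rpl22l1, which substitute for each other in the large subunit, differed in opposite directions between PFC and AMY. Rpl22 rose from 68.6 ± 6.57 CPM in AMY (n = 115) to 80.6 ± 9.43 in PFC (n = 112; 64.9, 79.1, 119), a log2 difference of 0.34 (SE 0.02, adjusted p = 7.01e-36). Rpl22l1 fell from 33.4 ± 6.51 (n = 115; 16.5, 32.7, 66.9) to 23.8 ± 5.32 (n = 112; 15.3, 23.1, 58.2), a log2 difference of -0.38 (SE 0.04, adjusted p = 7.43e-20). For both genes libraries of the regions overlapped. Rps27l and Rpl36al were higher in VTA than in AMY by 0.33 and 0.27, and Rps19bp1 was lower by -0.38.

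Between AMY and Nac the small-subunit genes had 30 higher and 1 lower in Nac (median 0.29), the large-subunit genes 41 and 0 (0.19), and the 7 relatives 1 and 2 (-0.05). Ribosomal proteins outside the symbol rule were likewise higher in Nac: Fau, whose product is cleaved to S30, by 0.24 and Rack1, the scaffold on the small subunit, by 0.26. Of 17 genes for elongation factors and other TOP mRNAs 13 were higher and 1 lower (median 0.12), with Eef1a1 at 0.33, Eef2 at 0.12 and Pabpc1, the poly(A)-binding protein, at 0.61. Of 27 genes for ribosome biogenesis 13 were higher and 7 lower (median 0.03), led by Nhp2 of the H/ACA particles at 0.74. Of 14 genes that control ribosomal protein mRNA translation 7 were higher and 4 lower (median 0.04, as over all genes). Larp1 of this list, the repressor of TOP mRNAs, stood at -0.31. The 76 mitochondrial ribosomal protein genes split into 32 higher and 21 lower (0.01), and the 86 nuclear genes of oxidative phosphorylation into 50 and 12 (0.08). In VTA against AMY the 2 kinds of gene parted: 81 of the 86 oxidative phosphorylation genes were higher and 2 lower (median 0.34), while the median of the members was 0.01.

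Within regions, the design asks whether housing, cocaine or sex altered these genes. Of 40 comparisons (10 per region) 39 had no member past the adjusted threshold with edgeR, and DESeq2 called members in the same 1 comparison (53 members; 7.82% of genes). At an unadjusted p under 0.05 the number of members ran from 0 to 70 of 83 over the 39. The share of all genes at that p varied too. It was 3.09% under acute cocaine in AMY, 13.7% for housing in saline females in Nac and 19.2% under chronic cocaine in Nac. Such a count alone is therefore no result about the members. Limma voom with sample quality weights called 4 members in PFC under chronic cocaine (15.6% of genes called), 2 in the comparison of the sexes in PFC (1.77%), 1 in that in Nac (1.07%) and 1 in VTA under acute cocaine (2.30%). The SD of the members' level between libraries of a group was 0.13 in AMY and 0.33 in Nac.

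**Figure D3:**
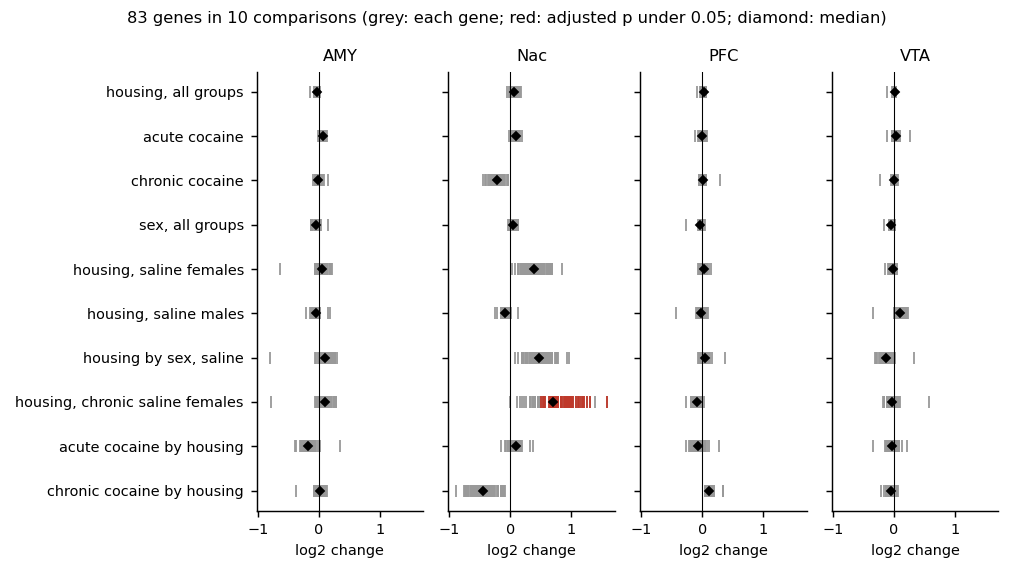
Fitted log2 change of each of the 83 members (vertical marks) in 10 comparisons within each of the 4 regions; red marks an adjusted p under 0.05 and diamonds are medians. Red marks appear in Nac for isolated against group-housed females with chronic saline (median 0.69), and the medians in AMY, PFC and VTA lie between -0.17 and 0.11.

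The 1 comparison with calls was that of isolated with group-housed females that received chronic saline, in Nac. There 56 of the 83 members were higher in isolated females and 0 lower (6.51% of the 17266 genes tested were called, 1106 of 1124 of them higher), with a median of 0.69 against -0.00 over all genes. The subunits shared in it: 25 of 31 small-subunit genes, 28 of 45 large-subunit genes and 3 of 7 relatives. So did other groups of genes, with 8 of 17 TOP mRNA genes, 38 of 76 mitochondrial ribosomal protein genes, 57 of 86 oxidative phosphorylation genes and 254 of 515 genes with transcripts under 1000 bases. None of the 14 genes that control ribosomal protein mRNA translation was called.

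These differences rested on 1 library, replicate 6 of the isolated females. Rpl37a, a zinc-finger protein of the large subunit, had 90.1, 76.5, 96.8, 106, 112 and 94.7 CPM in the 6 group-housed libraries. In the isolated group it had 81.3, 109, 96.5, 96.0 and 105 CPM in replicates 1 to 5 and 1075.2 in replicate 6. Replicates 1 to 5 lay within the range of the group-housed libraries, and replicate 6 lay far above every other library of both groups. The fitted log2 change was 1.59 (SE 0.30, adjusted p = 0.00315). Rpl41 had 159 to 199 CPM in group-housed libraries, 143, 190, 164, 164 and 180 in isolated replicates 1 to 5 and 1457 in replicate 6 (log2 change 1.30, adjusted p = 0.00379). Rplp2, the partner of Rplp1 in the stalk, had 131 to 151 CPM in group-housed libraries, 120, 151, 122, 133 and 135 in isolated replicates 1 to 5 and 1135 in replicate 6 (1.25, adjusted p = 0.00379). Rpl38 and Rps21 followed with 1.21 (adjusted p = 0.00421) and 1.19 (adjusted p = 0.00513), while Rpl37rt, a relative of Rpl37, was at 1.39 without a call (adjusted p = 0.0544). Without replicate 6, edgeR called 0 members, 0 had an unadjusted p under 0.05 (1.40% of genes did), and the median was 0.01.

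**Figure D4:**
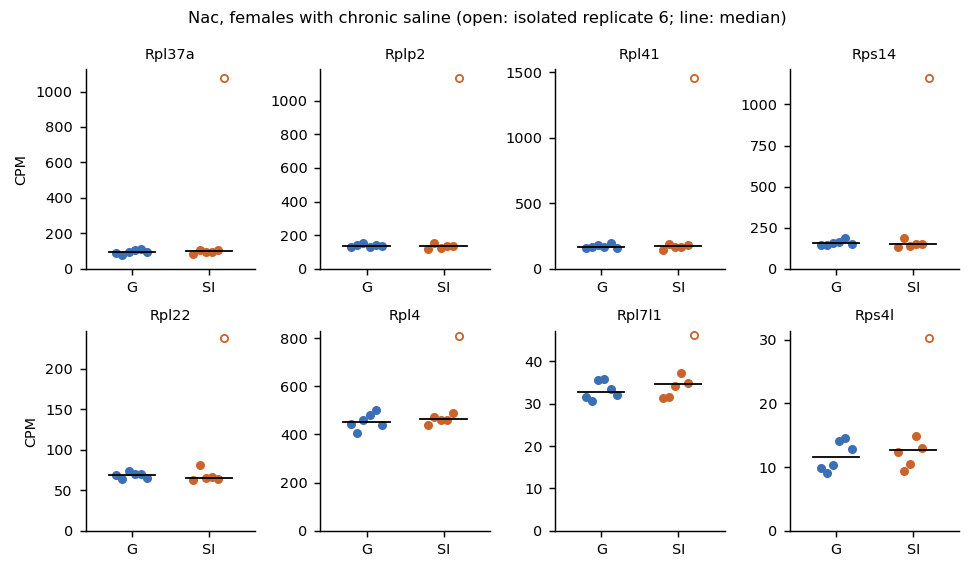
CPM (linear axes from 0, scaled for each gene) of 8 members in each Nac library of females with chronic saline, group-housed (G) or isolated (SI); lines are group medians and the open point is isolated replicate 6. For Rpl37a that library stands at 1075.2 CPM, and the other 5 isolated libraries (81.3 to 109) lie among the group-housed ones.

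In replicate 6 members took 5.15% of all counts, against 1.13% to 1.33% in the other libraries of its group. Of the 83 members 82 were above the group's median and 76 more than 2-fold above, with a median log2 excess of 1.94 and the largest, 3.46, for Rpl37a. Over all genes 11.7% were more than 2-fold above and 22.9% less than 50% of the median. Genes with transcripts under 1000 bases had a median excess of 1.46 and those of 3000 bases or more one of -0.71. It was the only library of its group in title-number series 500, while the other 5 were in series 1200. The library also stood apart on other measures: 15094339 counts in all, 19715 genes counted (the lowest of all libraries), 294 CPM of the nuclear RNA Malat1 (541 to 749 in the others), an astrocyte list at 6.82 (7.45 to 7.69), a blood list at 4.91 (2.82 to 3.79) and a striatal list at 8.94 (8.38 to 8.79). The libraries that share its title number in AMY, PFC and VTA lay 0.70, 3.89 and -1.13 robust SDs from their region's median level. The part of these measures in the result was not tested. In bulk tissue, fewer cells of a type and less RNA per cell cannot be told apart.

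A library at the other end, replicate 3 of the isolated males with chronic cocaine in Nac, held 0.248% of its counts in the members (1.24% to 1.45% in the others of its group). It had 81 of 83 members at less than 50% of the group's median, with a median of -2.49. Rpl41 was lowest at 17.9 CPM, against 185 to 219 in the others (-3.35). Short transcripts had a median of -1.48 and long ones of 0.18, and the library held 11521 CPM of Malat1 (495 to 950 in the others) and had 11205511 counts in all, the lowest of all libraries. Its own striatal list, at 8.15, lay at the low end of its group (8.15 to 8.90).

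Across all libraries of a region the members' level followed the level of short against long transcripts. After subtraction of the group means, it correlated with the difference in level between short and long transcripts (members left out) at r = 0.88 in AMY (n = 115), 0.95 in Nac (n = 112), 0.94 in PFC (n = 112) and 0.89 in VTA (n = 115). Without the libraries that stand apart r was 0.86 in Nac (n = 102) and 0.83 in PFC (n = 99). With the oxidative phosphorylation genes r over all libraries was 0.76, 0.96, 0.93 and 0.70. These are descriptions: both measures come from the same libraries and share their depth and composition.

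**Figure D5:**
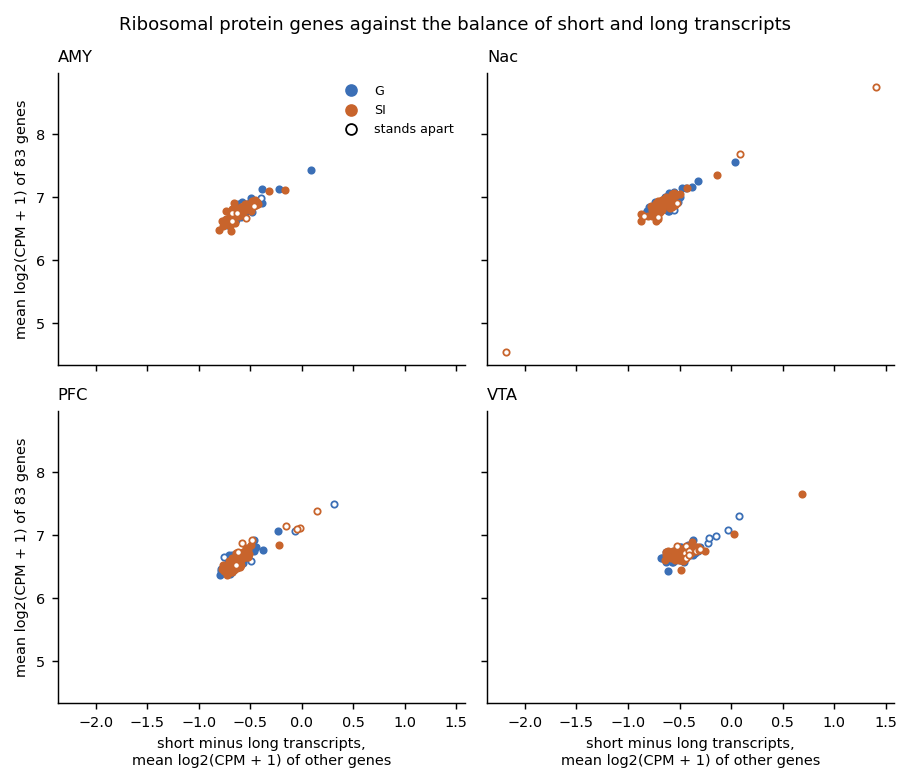
Members' level in each library against the difference in mean log2(CPM + 1) between genes with short and with long transcripts, 1 panel per region; open points are libraries that stand apart. Points follow a rising line in every panel (r from 0.88 to 0.95 after subtraction of group means), with the 2 extreme Nac libraries at its ends.

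Housing over all groups gave no call. The median log2 change of isolated against group-housed libraries was 0.06 in Nac, 0.02 in VTA and in PFC, and -0.03 in AMY, with 4 members in AMY (4.07% of genes) and 0 in the other regions at an unadjusted p under 0.05. In Nac it was -0.02 without that same replicate 6. By the mean level of single libraries, isolated AMY libraries had 6.76 ± 0.13 (n = 57) and group-housed ones 6.79 ± 0.15 (n = 58). In Nac, isolated females with saline of either schedule had a median change of 0.38, with 69 members at an unadjusted p under 0.05 (13.7% of genes), which became 0.04 without the libraries that stand apart. Isolated against group-housed males with saline in VTA had a median of 0.10, with 29 members at an unadjusted p under 0.05 (3.33% of genes) and none adjusted. Without replicate 2 of the isolated males with chronic saline, whose level was 7.65, that median was 0.03, with 5 members at an unadjusted p under 0.05 (2.77% of genes). Within series 500, which holds chronic saline libraries and includes replicate 6 as the lone isolated female of Nac (assumed in the fit to vary like the other groups), housing over all groups in Nac called 81 members beside 47.5% of all genes, and sex 81 beside 47.0%.

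Under acute cocaine no member passed the threshold. The median was 0.06 in AMY, where 82 of 83 members were positive and 12 had an unadjusted p under 0.05 (3.09% of genes), 0.09 in Nac (0 members, 5.18% of genes), 0.00 in PFC (1 member, 10.6% of genes) and 0.03 in VTA (2 members, 6.47% of genes). Without the libraries that stand apart the medians were 0.07, 0.05, 0.02 and 0.01 in the same order. In AMY, without replicate 1 of group-housed males with acute cocaine, the median was 0.03, with 2 members at an unadjusted p under 0.05 (2.13% of genes). With that replicate 1 (level 7.43) kept among the group-housed libraries, the change in AMY under isolation minus that under group housing had a median of -0.17. Of the members, 42 had an unadjusted p under 0.05 (9.88% of genes), and the lowest adjusted p was 0.453. In VTA the same difference called 220 genes (1.28% of 17144) and 0 members. All 8 markers of the choroid plexus were among those higher, with a median of 4.74, and the members' count beside them was 0.

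Under chronic cocaine no member passed the threshold. In PFC 7.12% of 17003 genes were called and 0 members, with a median of 0.01 and 0 members at an unadjusted p under 0.05. With the difference between short and long transcripts in the model 8 members were called beside 13.0% of genes. Markers of striatal neurons moved with that comparison (6 of 8 higher, median 0.52). Chronic saline libraries were in series 500 and 1200 and chronic cocaine libraries in series 1000 and 1200. With the series in the model, after leaving out the libraries that stand apart, the median was -0.00. In Nac the median was -0.22, with 0 of 83 members positive and 65 at an unadjusted p under 0.05 (19.2% of genes), but none adjusted (0.151% of genes called). Each arm of this comparison holds 1 of the 2 extreme libraries. Without Nac replicate 6 alone the median was -0.05, with 1 member at an unadjusted p under 0.05, and without all libraries that stand apart it was -0.03. The difference between isolated and group-housed mice in the change under chronic cocaine likewise went from -0.45 to -0.00. Medians in AMY and VTA were -0.02 and 0.00.

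The sexes differed in PFC once the libraries that stand apart were left out. With all libraries no member was called (1.12% of genes called), the median female minus male difference was -0.03, and 1 member had an unadjusted p under 0.05. Without the 13 libraries, 43 of the 83 members were lower in females and 0 higher (1.51% of 17110 genes called, 1.02% lower), and the estimates of all 83 were negative, with a median of -0.10. DESeq2 on the same libraries called 48 (1.81% of genes), and a model with the number series 49 (2.13%). Fits within a number series alone kept the libraries that stand apart. Their medians were 0.40, -0.08, -0.05 and -0.10 (series 500, 1000, 1100 and 1200) with 0 members called in each. Series 500 includes replicate 7 of group-housed females (level 7.50) and replicate 5 of isolated females (7.10), both with chronic saline and both set apart.

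Rpl13a, which besides its place in the large subunit represses translation of inflammatory mRNAs, had the lowest p. It had 246 ± 20.7 CPM in females (n = 49; 213, 241, 295) and 268 ± 31.9 in males (n = 50; 220, 265, 365). The sexes overlapped over most of their range, with the highest values in males. The log2 difference was -0.12 (SE 0.03, adjusted p = 0.00906 with edgeR), and with all libraries it was -0.04 (adjusted p = 0.764). Rps18 followed with -0.11 (adjusted p = 0.00942), and Rpl30 with -0.11 (adjusted p = 0.00975). Rps3a1 was at -0.13 (adjusted p = 0.0115). Of the 4 X-linked members Rpl10 (-0.11, adjusted p = 0.0181), Rps4x (-0.10, adjusted p = 0.0198) and Rpl39 (-0.13, adjusted p = 0.0261) were lower in females and Rpl36a was not called (-0.11, adjusted p = 0.0584). X-linked and autosomal members thus had the same direction and like sizes.

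This result depends on which libraries are kept. Of the 13 PFC libraries left out, 7 were female, with levels of 6.52 to 7.50, and 6 male, with levels of 6.42 to 7.06. The 5 female PFC libraries more than 3 robust SDs above the median level were all among those left out, as was 1 of the 2 such male libraries. The rule that set them apart did not use sex, but it did use expression values of these libraries. Among the libraries kept, the mean level was 6.55 ± 0.10 in females (n = 49) and 6.63 ± 0.14 in males (n = 50). The difference between short and long transcripts was -0.64 in females and -0.61 in males, and its part in the result was not tested. With all 112 libraries and that difference in the model, 37 members were lower in females (2.83% of genes called).

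How the regions compare in this depends on the libraries kept. Without those that stand apart, the female minus male difference in mean level was -0.088 in PFC, -0.071 in Nac, -0.038 in AMY and -0.038 in VTA. With all libraries it was -0.040, 0.007, -0.041 and -0.039 in the same order. In AMY, with all libraries, the median over the members was -0.04, with 14 members at an unadjusted p under 0.05 (16.1% of genes). There 0 members were called (2.19% of genes called), and the lowest adjusted p was 0.0906, for Rps27l (-0.12). With the difference between short and long transcripts in the model 14 members were called there (4.11% of genes). In Nac, without the libraries that stand apart, Rpl22 was lower in females (-0.09, adjusted p = 0.0399; 0.382% of genes called), with 70.0 ± 5.82 CPM in females (n = 50) and 74.9 ± 6.64 in males (n = 52), and no member had a positive estimate. With all Nac libraries the median was 0.04, and 0 members were called (0.272% of genes called). In VTA, with all libraries, the median over the members was -0.04, with 4 members at an unadjusted p under 0.05 and 0 called (0.332% of genes called). Compared by group medians of the level, females were below males in 7 of 8 pairs of groups in AMY and in PFC, and in 5 of 8 in Nac and in VTA. Whether the difference between the sexes itself differs between regions was not tested.

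The members varied together from library to library. After subtraction of the group means, the median correlation of a member with the mean of the other members was 0.965 in Nac, 0.93 in PFC, 0.88 in VTA and 0.85 in AMY, and 0.863 in Nac and 0.84 in PFC without the libraries that stand apart. Over the regions Rps3 (0.98) and Rpl13a (0.97) were most like the rest, followed by Rpl32 (0.962), Rpl11 (0.956) and Rps19 (0.955). Rpl23a (0.27) and Rpl37rt (0.295) were least like it, followed by Rps4l (0.525), Rpl7l1 (0.67) and Rps24 (0.67). Rpl23a and Rpl37rt are mostly made of windows shared with other genes, and both also had low counts. Rps27, with a larger share of such windows than either, stood at 0.82, and Rps4l has a much smaller share. The part of shared sequence or of low counts in these values was not tested. Among 10206 other genes those closest to the members' mean in AMY were Eef1b2, an exchange factor for elongation factor 1 (r = 0.91, n = 115), Pfdn5, a prefoldin subunit (0.89), Rack1 (0.87), Tomm7 (0.87), Atp5e and Chchd2 (0.86 each), then Gas5, Fis1, Snrpd2 and Eef1g. Pfdn5 and Rack1 were among the 10 closest in all 4 regions, Pfdn5 with 0.99 in Nac (n = 112), 0.97 in PFC (n = 112) and 0.95 in VTA (n = 115). These correlations run over libraries that share depth and composition effects.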

How the data were processed

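RNA of all libraries was extracted with QIAzol and RNeasy columns, made into poly(A) stranded libraries and sequenced as 50-base single-end reads, per the labels' protocols. The authors deposited 1 table of raw counts per gene, made with STAR and featureCounts on GRCm38 (mm10), per the submitters' processing notes; for the strand setting, the annotation release and the tool versions the sources used here give nothing. Symbols, transcript lengths and coordinates came from GENCODE M21 (GRCm38); genes without a symbol held 0.11% of counts. No library duplicated another.

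CPM (counts divided by the library total) described levels. Tests were edgeR 4.0.16 quasi-likelihood fits (TMM, filterByExpr, robust) in R 4.3.3, with the 16 groups of a region, or all 64, as cell means, and Benjamini-Hochberg adjustment over all genes tested, with a threshold of 0.05. Each region's fit took 17003 to 17391 genes. Libraries stand apart where a robust z exceeded 5 on the first 4 principal components of the 3000 most variable genes, or 8 on a marker list from outside the region. Alternatives were DESeq2 1.42.0, limma 3.58.1 (voom with quality weights), other size factors, no filter on low counts, the title's number series in the model, and libraries left out. The fits were also run on counts simulated for acute cocaine in Nac, with a fixed dispersion and no outlying library. That simulation cannot show how the fits behave with libraries that stand apart. The single libraries with a robust z of the members' level over 4.5 left out one at a time, the short-minus-long covariate, the fits within a series and the combined settings were chosen after seeing the data.

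Named members were the highest and lowest by level or likeness, the largest or lowest-p changes of a comparison, the relatives and the X-linked members; Rps4x, Rplp0, Rplp2 and other companions were named after their values were seen. Some genes the rule would name are not reported here. The members and lists were chosen with earlier results of these data known. Shared 50-base windows were counted over annotated transcripts.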

Additional observations from a re-analysis of the deposited data

Results flagged for a closer look

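Each of the 64 groups was examined for a library far from the rest of its group in the members' level (mean log2(CPM + 1) over the 83 genes), by Dixon's ratio of the gap to the range. Chance alone marks about 1 in 20 groups, or 3.2 of 64, and 19 were marked: 6 in PFC, 6 in VTA, 4 in Nac and 3 in AMY. In 17 the library was high and in 2 low. Of the 19 libraries 12 were among those that stand apart, 18 were also the most extreme of their group on the difference between short and long transcripts, and 18 on the oxidative phosphorylation genes; the part of either in the members' level was not tested.

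In AMY the libraries were replicate 8 of group-housed females with acute cocaine (7.13), replicate 5 of isolated females with chronic cocaine (low, 6.57) and replicate 1 of group-housed males with acute cocaine (7.43; 82 of 83 members above the group's median and 0 more than 2-fold). In Nac they were replicate 6 of isolated females with chronic saline (8.76), replicate 5 of group-housed males with acute cocaine (7.26), replicate 5 of isolated males with acute cocaine (7.68) and replicate 3 of isolated males with chronic cocaine (low, 4.54).

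In PFC they were replicate 7 of group-housed females with chronic saline (7.50), replicate 7 of isolated females with acute cocaine (7.38), replicate 1 of isolated females with chronic cocaine (7.12), replicate 5 of isolated females with acute saline (7.14), replicate 5 of isolated females with chronic saline (7.10) and replicate 7 of group-housed males with acute saline (7.06). In VTA they were replicates 7 and 6 of group-housed females with acute (6.81) and chronic cocaine (7.08), replicate 8 of group-housed females with chronic saline (6.96), replicate 3 of isolated females with chronic cocaine (7.03), replicate 7 of group-housed males with acute cocaine (7.30) and replicate 2 of isolated males with chronic saline (7.65).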

How the results depend on the processing

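Between regions the signs of the medians and the calls of the named members held under every setting run, except that relative log expression factors and DESeq2 gave the median of VTA minus AMY as -0.0042 (0.01 with TMM factors), and leaving out the libraries that stand apart gave -0.045. Without those libraries 62 members differed between PFC and AMY (41 with all libraries). The comparison of regions without a filter on low counts was not run. Libraries with the same title number in 2 regions had the same group labels in all 99 to 106 pairs of libraries per pair of regions. They did not reliably deviate together. The median correlation of their deviations from group means over 10314 genes ran from 0.005 to 0.095 over the 6 pairs of regions. It exceeded 0.1 in 31 to 50 of the 99 to 106 pairs of libraries. These values do not settle whether such libraries came from the same mouse. With the title number as replicate block (limma voom), 73 members differed between Nac and AMY (86.0% of genes), 60 between PFC and AMY (84.2%), 60 between VTA and AMY (88.7%), 80 between PFC and Nac (87.8%), 75 between VTA and Nac (91.6%) and 68 between VTA and PFC (90.7%).

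For Nac, 7 settings are given in 1 order: limma voom; the difference between short and long transcripts in the model; replicate 6 left out; the libraries that stand apart left out; the same with DESeq2; with the number series in the model; and with the pituitary list dropped from the rule. Isolated against group-housed females with chronic saline had 0 members called under each, and medians of 0.0383, -0.0462, 0.0146, 0.0132, 0.0097, -0.0027 and 0.0157. There Rplp2 stood at -0.10, -0.0765, -0.0756, -0.0774, -0.0807, -0.0934 and -0.0743, Rps21 at -0.0235, -0.0573, -0.0165, -0.0185, -0.0218, -0.0545 and -0.0152, and Rpl41 at -0.0341, -0.0759, -0.0414, -0.0433, -0.0463, -0.041 and -0.04. Rpl37a turned to -0.0166 under the sixth setting, and Rpl38 to -0.0403 under the second and -0.0155 under the sixth. Leaving out 1 Nac library at a time, replicate 6 or 1 of 3 others, gave 0 to 74 calls (62 without replicate 4 of group-housed males with chronic saline, with 7.68% of genes called, 64 without replicate 5 of isolated males with acute cocaine, with 7.88%, and 74 without replicate 3 of isolated males with chronic cocaine, with 9.57%), medians of 0.0146 to 0.72, and values of -0.0756 to 1.29 for Rplp2, -0.0165 to 1.22 for Rps21 and -0.0414 to 1.33 for Rpl41. Housing in females over both saline schedules had medians of -0.0117, 0.043, 0.0375, 0.0399, 0.027 and 0.0422 from the second setting on, and 0.043 to 0.39 with 1 library left out. Housing by sex had 0.11, -0.0423, 0.13, 0.14, 0.14, 0.12 and 0.14, and 0.13 to 0.48 with 1 left out. Chronic cocaine by housing had -0.0899, -0.0571, -0.0937, -0.0011, -0.0037, 0.0112 and -0.0039, and -0.50 to -0.0937 with 1 left out. Within number series 500, housing and sex each called 81 members, with medians of 1.11 and 1.09.

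Between the sexes, calls were 14 in AMY under the second setting and 1 in Nac under the first, the fourth, the fifth and the sixth. In PFC they were 2 and 37 under the first and second, and 43, 48, 49 and 46 from the fourth on. The PFC median within series 500, fitted with all its libraries, was 0.40. Chronic cocaine in PFC called 4 and 8 members under the first and second, and acute cocaine in VTA 1 under the first. Beyond the library left out, the cause was not tested. How depth limits the members was not tested, and sequence shared with other genes limits what single members show.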
